A study of Mus musculus with 19 samples.

Results

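Solute carriers are membrane proteins that move amino acids, metals, sugars, nucleosides, ions and many other small molecules across the plasma membrane or the membranes of organelles. The genes described here are the solute carrier genes of a table of gene expression from mouse embryonic stem cells (ESCs). A gene was a member when its symbol was Slc, a family number, the letter a or o (or co) and a member number, and its mean over the 19 libraries was at least 5 CPM (reads of the gene per 1000000 reads of the library). The table lists 12942 genes, of which 199 have such a symbol. Slc2a1, Slc16a3, Slc38a4 and Slc7a11 were left out by name and 80 lay under the level, which left 115 members. Just inside the level were Slc29a3 at a mean of 5.01 CPM, Slc46a1 at 5.23 and Slc22a23 at 5.23, and just outside were Slc29a4 at 4.95, Slc1a1 at 4.47 and Slc35a5 at 4.45. The members were chosen by their mean CPM over all libraries, so that level is a description and nothing is supported with it. Because 34 of the 115 members had a group mean under 5 CPM in at least 1 group, a member high in 1 group could enter through that group, and counts are also given for all 195 such symbols at any level, without the 4 left out.

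The cells were 3 ESC lines labelled male, namely J-37, J-35 and J-34. Per the labels, cells at passage 4 went into 1 of several media: PKCi/L, a2i/L, 2i/L or S/L for 6 passages (passage 10, 2 libraries each), S/L+PD for 3 passages (passage 7, 2 libraries), and S/L or 2i/L for 16 passages (passage 20, 3 libraries each). In the last group, cells from 2i/L at passage 20 were returned to S/L for 3 passages (passage 23, 3 libraries). In this field S/L usually stands for serum with leukaemia inhibitory factor (LIF), 2i/L for a Mek and a Gsk3 inhibitor with LIF, a2i/L for a Src and a Gsk3 inhibitor with LIF, PKCi/L for a protein kinase C inhibitor with LIF, and PD for the Mek inhibitor. The labels do not spell these names out or give the basal media, doses or genotypes of the lines. In all groups the cells grew on mouse embryonic fibroblast feeders, and cells positive for the surface antigen SSEA1 were sorted before RNA extraction. Each library is 1 line in 1 medium, so n is the number of lines. The S/L, 2i/L and a2i/L groups of passage 10 hold J-34 and J-35. By its title the second library of PKCi/L and of S/L+PD is J-37, while its generation label says J-35. The title was followed, so those comparisons with S/L also set J-37 beside J-35, and the S/L+PD comparison sets passage 7 beside passage 10.

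In pluripotent cells the carriers set which nutrients enter: cationic and neutral amino acids feed protein synthesis and signalling by mTORC1, glucose and lactate carriers serve glycolysis, and mitochondrial carriers link the cytosol to the respiratory chain. Zinc is moved by the Slc39 (ZIP) family into the cytosol and by the Slc30 (ZnT) family out of it, either across the plasma membrane or into vesicles. Many amino acid carriers of the Slc7 family work only as a pair with the heavy chain encoded by Slc3a2.

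The deposited CPM of the listed genes summed to 421426 to 465897 per library at passages 7 and 10 and to 292986 to 396883 at passages 20 and 23. Levels below are CPM after a trimmed-mean scaling between libraries (scaled CPM), and changes are differences of log2(scaled CPM + 0.5), which understate the change of low genes. They were tested with limma in 1 fit over the 19 libraries, with p-values adjusted over all genes, two-sided, and called at 0.05. The summed level of 7 ESC markers lay between 1853 and 2879 scaled CPM in all 19 libraries. Each of Pou5f1, Sox2, Nanog, Esrrb, Tdgf1 and Dppa5a was above 100 in every library, and Zfp42 ranged from 79.74 to 188.8. Against S/L, the markers called higher and lower were 2 and 3 in 2i/L, 2 and 2 in a2i/L, 4 and 1 in PKCi/L and 2 and 0 in S/L+PD. At passage 20 they were 2 and 4 in 2i/L, and after the return 1 and 6. In that order, the shares higher were 28.6%, 28.6%, 57.1%, 28.6%, 28.6% and 14.3% (all genes 26.0%, 18.7%, 18.0%, 23.4%, 32.3% and 21.5%). The shares lower were 42.9%, 28.6%, 14.3%, 0.0%, 57.1% and 85.7% (all genes 23.4%, 18.2%, 18.6%, 21.3%, 32.1% and 22.8%). Fibronectin (Fn1) made up most of the summed level of 15 measured fibroblast markers in the S/L, 2i/L, a2i/L and PKCi/L libraries of passage 10, at 448.9 to 471.1 in S/L, 858.7 to 1061 in 2i/L, 792.3 to 993 in a2i/L and 650.5 to 795.3 in PKCi/L. Without Fn1 the other 14 summed to 13.57 to 20.32 in S/L, 72.15 to 108.8 in 2i/L, 18.38 to 23.28 in a2i/L, 15.04 to 19.27 in PKCi/L and 1066 to 1699 in S/L+PD. At passage 20 these 14 summed to 51.15 to 96.19 in S/L and 475.2 to 564.3 in 2i/L, with 40.16 to 53.24 after the return. The part of feeder RNA in the changes below was not tested, and in bulk RNA fewer cells of a type and less RNA per cell cannot be told apart.

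At passage 10, 2i/L was the medium with the largest number of called members against S/L among the 3 media of that passage. In 2i/L, 38 of 115 members were higher and 27 lower than in S/L, where 49.4% of all genes were called, 26.0% higher and 23.4% lower. In a2i/L, 25 were higher and 27 lower (all genes 36.9%, as 18.7% and 18.2%). In PKCi/L, 18 were higher and 29 lower (all genes 36.7%, as 18.0% and 18.6%). In S/L+PD, 20 were higher and 22 lower (all genes 44.8%, as 23.4% and 21.3%). These comparisons share the S/L libraries of passage 10. In unscaled CPM the counts were 11 higher and 26 lower for a2i/L, 7 and 36 for PKCi/L, and 13 and 20 for S/L+PD. The median log2 changes of all genes in unscaled CPM were -0.086, -0.17 and -0.063, and the shares of all genes given here are from scaled CPM. For a2i/L, 14 members were higher without the J-35 S/L library, 12 were higher without the J-35 a2i/L library and 16 were lower without the J-34 a2i/L library. For PKCi/L, 10 were higher and 19 lower without its J-34 library, and 15 were higher and 27 lower without its J-37 library. For S/L+PD, 20 were higher and 19 lower without its J-37 library.

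At passage 20, 48 members were higher and 34 lower in 2i/L than in S/L, where 64.4% of all genes were called, 32.3% higher and 32.1% lower. In unscaled CPM 66 were higher and 16 lower, where the median log2 change of all genes was 0.33. After the return, 31 were higher and 33 lower than in S/L at passage 20 (all genes 44.4%, as 21.5% and 22.8%). In unscaled CPM it was 43 and 13, where the median of all genes was 0.2. The shares of all genes given here are from scaled CPM. Against 2i/L at passage 20, 30 were higher and 48 lower after the return (all genes 55.0%, as 27.3% and 27.7%). Over all 195 solute carrier symbols at any level, 62 were higher and 52 lower in 2i/L at passage 10, 45 and 46 in a2i/L, 22 and 56 in PKCi/L and 37 and 42 in S/L+PD. The 80 under the level held 4 of those higher and 27 of those lower in PKCi/L. Over the 195, 83 were higher and 54 lower in 2i/L at passage 20, 49 and 50 after the return against S/L, and 48 and 82 against 2i/L. By limma's F test, 106 of the 115 members differed among the 5 groups of passages 7 and 10, where 83.3% of all genes did, and 98 differed among the 3 groups of passages 20 and 23, where 75.9% did. Slc19a2 for thiamine, Slc30a6 for zinc and Slc35a1 for CMP-sialic acid passed in neither F test.

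**Figure D1:**
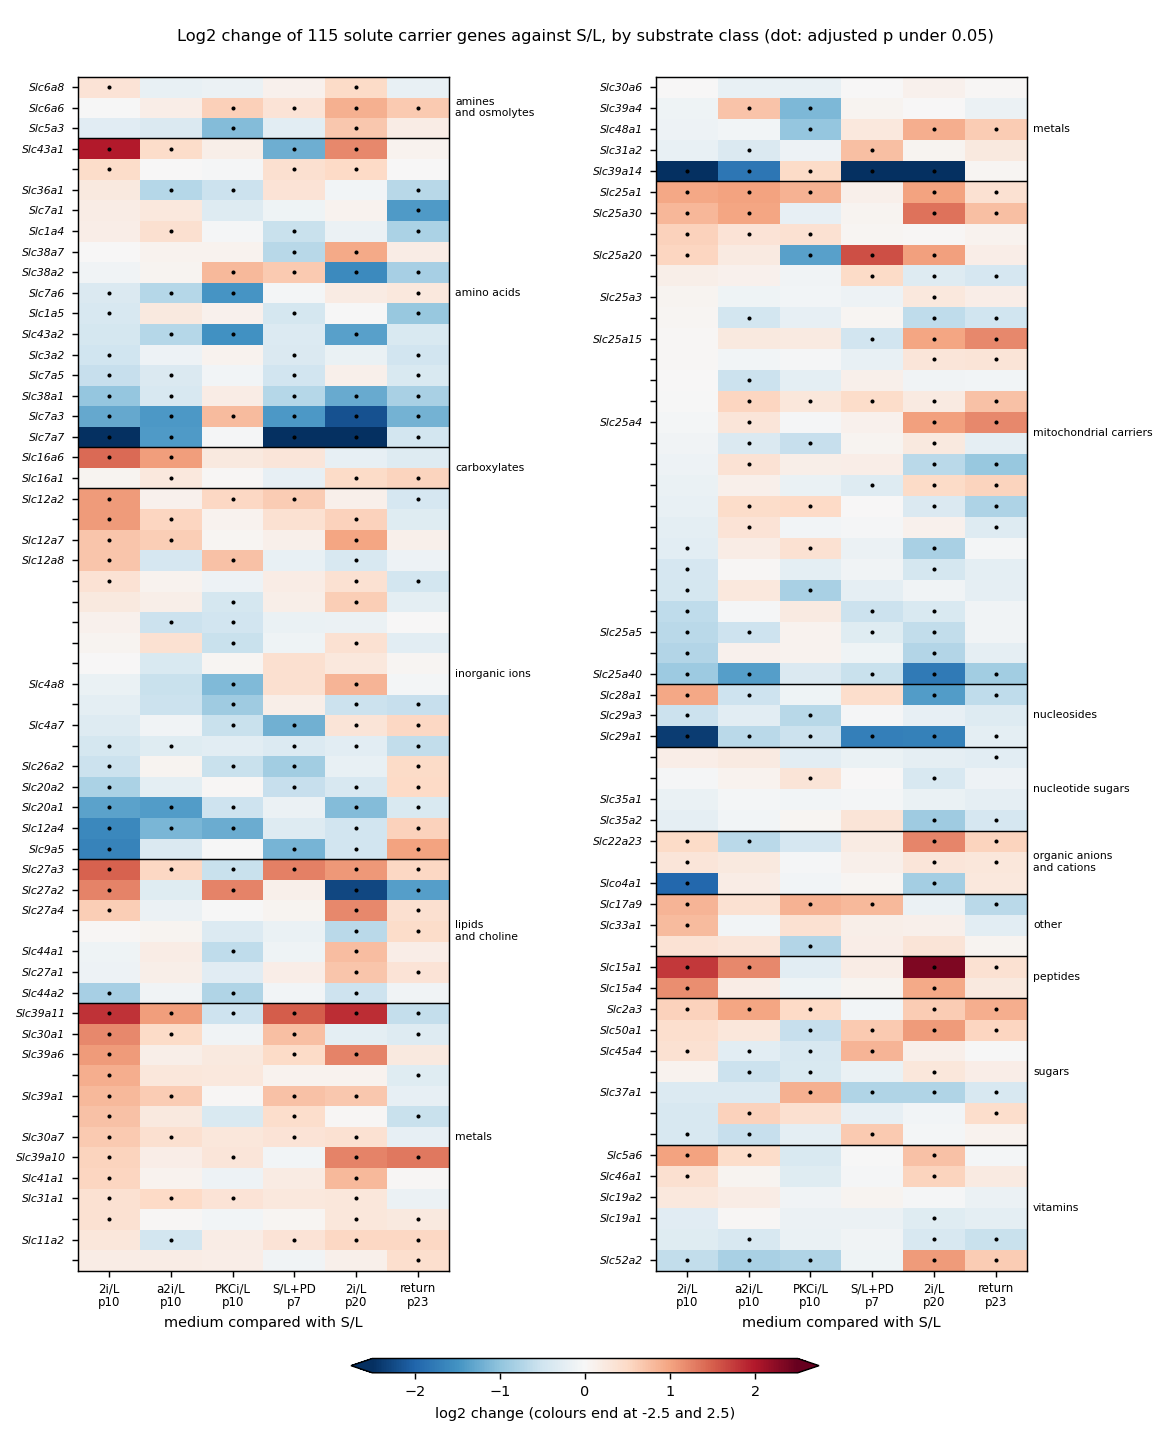
Log2 change of each of the 115 members (rows, by substrate class and then by the change in 2i/L at passage 10, with members described in the text labelled) against S/L of passage 10 (first 4 columns of each block) or of passage 20 (last 2 columns). Red is higher and blue lower than in S/L, colours end at a log2 change of 2.5 in either direction, and a dot marks an adjusted p under 0.05. Slc39a14 and Slc7a7 are the darkest blue rows in 2i/L at both passages and in S/L+PD, and 11 of the 18 metal carriers are called higher in 2i/L at passage 10.

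The 5 members with the largest F among the groups of passages 20 and 23 were Slc39a14, Slc7a7, Slc39a11, Slc15a1 and Slc29a1. All 5 were also among the 8 largest at passages 7 and 10. A promoter window from RefSeq (build GRCm38.p6, 250 bases before to 50 after the start, read in the direction of transcription) is shown for 4 of them, to put the sequence beside members with the largest changes. Where several starts are listed the first one is shown, and which start these cells use was not tested. The windows lie on the minus strand at chr14:54417895-54418194, chr11:113650043-113650342, chr14:121505205-121505504 and chr17:45599569-45599868. Capitals mark CTTTGA (the core bound by TCF and LEF factors) and CCGGAA (an ETS core), searched on both strands. TGCNCNC, a loose pattern for the metal response element, was also searched, is in the Slc39a11 and Slc15a1 windows at 2 places each and is not capitalised. TGANTCA (AP-1) and TTCNNNGAA (STAT) were searched and are not in these windows.
Slc7a7: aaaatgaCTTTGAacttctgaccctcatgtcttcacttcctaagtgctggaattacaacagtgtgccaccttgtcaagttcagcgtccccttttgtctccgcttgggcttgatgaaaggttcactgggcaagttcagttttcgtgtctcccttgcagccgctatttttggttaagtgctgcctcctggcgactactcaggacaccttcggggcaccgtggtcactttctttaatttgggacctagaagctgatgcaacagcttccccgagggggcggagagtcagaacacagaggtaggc
Slc39a11: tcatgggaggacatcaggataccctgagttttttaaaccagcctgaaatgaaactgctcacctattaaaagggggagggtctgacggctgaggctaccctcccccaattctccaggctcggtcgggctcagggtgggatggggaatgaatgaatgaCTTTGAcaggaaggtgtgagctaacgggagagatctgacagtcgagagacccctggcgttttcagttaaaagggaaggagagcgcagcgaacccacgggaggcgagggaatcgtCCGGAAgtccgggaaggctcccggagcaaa
Slc15a1: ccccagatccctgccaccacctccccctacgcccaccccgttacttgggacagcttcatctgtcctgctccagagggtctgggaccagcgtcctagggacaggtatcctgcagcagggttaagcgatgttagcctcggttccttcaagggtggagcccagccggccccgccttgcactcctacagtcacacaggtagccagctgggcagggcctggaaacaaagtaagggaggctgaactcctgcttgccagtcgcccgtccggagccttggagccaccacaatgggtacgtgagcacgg
Slc29a1: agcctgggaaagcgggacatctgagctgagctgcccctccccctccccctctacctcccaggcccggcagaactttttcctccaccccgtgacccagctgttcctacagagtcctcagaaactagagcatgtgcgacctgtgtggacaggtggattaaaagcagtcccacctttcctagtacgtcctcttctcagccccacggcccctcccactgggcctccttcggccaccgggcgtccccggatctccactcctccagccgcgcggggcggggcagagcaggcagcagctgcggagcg
CTTTGA is in 16.0% of the 32851 windows of the table, CCGGAA in 14.9%, TGANTCA in 7.8%, TTCNNNGAA in 8.3% and TGCNCNC in 51.0%. Of the members, 85 of 115 matched the table by symbol, with 120 windows, of which 31.7% hold CCGGAA, 58.3% hold TGCNCNC and 15.8% hold CTTTGA. Of the 11493 windows of genes in the expression table, 26.4% hold CCGGAA. By gene, it was in 19 of 37 matched members called higher in 2i/L at passage 20, in 6 of 24 called lower, in 11 of 24 not called, and in 31.1% of all 8950 matched genes of the expression table. These are matches of letters in a fixed window and are given as a description.

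Metal carriers were mostly higher in 2i/L, with 1 large fall. Of 18 members for zinc, iron, copper, magnesium or haem, 11 were higher and 1 lower in 2i/L at passage 10 (median log2 change 0.46, all genes 0.012), and 10 and 1 at passage 20 (median 0.28, all genes -0.0056). The higher members were 61.1% and 55.6% of the class, where 26.0% and 32.3% of all genes were higher. In S/L+PD 8 were higher and 1 lower (44.4% and 5.6%, all genes 23.4% and 21.3%). In a2i/L 6 were higher and 3 lower (33.3% and 16.7%, all genes 18.7% and 18.2%). In PKCi/L 3 were higher and 3 lower (both 16.7%), near the shares of all genes (18.0% and 18.6%). The gene that fell was Slc39a14, whose product brings zinc, manganese and iron not bound to transferrin into cells. It stood at 33.97 and 32.9 scaled CPM in S/L at passage 10, 1.11 and 1.43 in 2i/L, 9.50 and 8.94 in a2i/L, 48.9 and 44.2 in PKCi/L and 4.44 and 4.32 in S/L+PD. Its levels at passage 20 were 50.3, 50.2 and 48.4 in S/L and 5.02, 5.03 and 6.27 in 2i/L, against 56.5, 50.99 and 47.1 after the return. The 2i/L and S/L+PD libraries were the lowest, the a2i/L libraries came next, and the return libraries overlapped S/L at passage 20. The log2 change in 2i/L was -4.27 ± 0.12 SE, adjusted p = 8.05e-16 at passage 10 and -3.08 ± 0.10 SE, adjusted p = 4.87e-15 at passage 20. It was -2.80 ± 0.12 SE, adjusted p = 2.78e-13 in S/L+PD and -1.80 ± 0.12 SE, adjusted p = 5.31e-10 in a2i/L. In PKCi/L the difference was 0.47, and that call was lost in unscaled CPM and without the J-34 PKCi/L library.

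Slc39a11, another ZIP carrier, moved the other way. Its levels were 10.04 and 10.9 scaled CPM in S/L at passage 10, 35.96 and 40.3 in 2i/L, 19.1 and 25.3 in a2i/L, 6.07 and 8.42 in PKCi/L and 28.5 and 33.5 in S/L+PD. At passage 20 they were 6.18, 6.58 and 6.39 in S/L and 25.2, 23.1 and 24.7 in 2i/L, against 4.21, 3.94 and 3.96 after the return. All libraries of 2i/L, a2i/L and S/L+PD were above all S/L libraries, and the return libraries were the lowest of the 19. The log2 change was 1.81 ± 0.14 SE, adjusted p = 1.47e-09 in 2i/L at passage 10, 1.85 ± 0.11 SE, adjusted p = 3.10e-11 at passage 20 and 1.52 ± 0.14 SE, adjusted p = 2.61e-08 in S/L+PD. After the return Slc39a11 fell below S/L of passage 20 (log2 change -0.60 ± 0.11 SE, adjusted p = 2.66e-04). The difference between the 2i/L effects of the 2 passages was 0.036 ± 0.18 SE, adjusted p = 0.887.

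**Figure D2:**
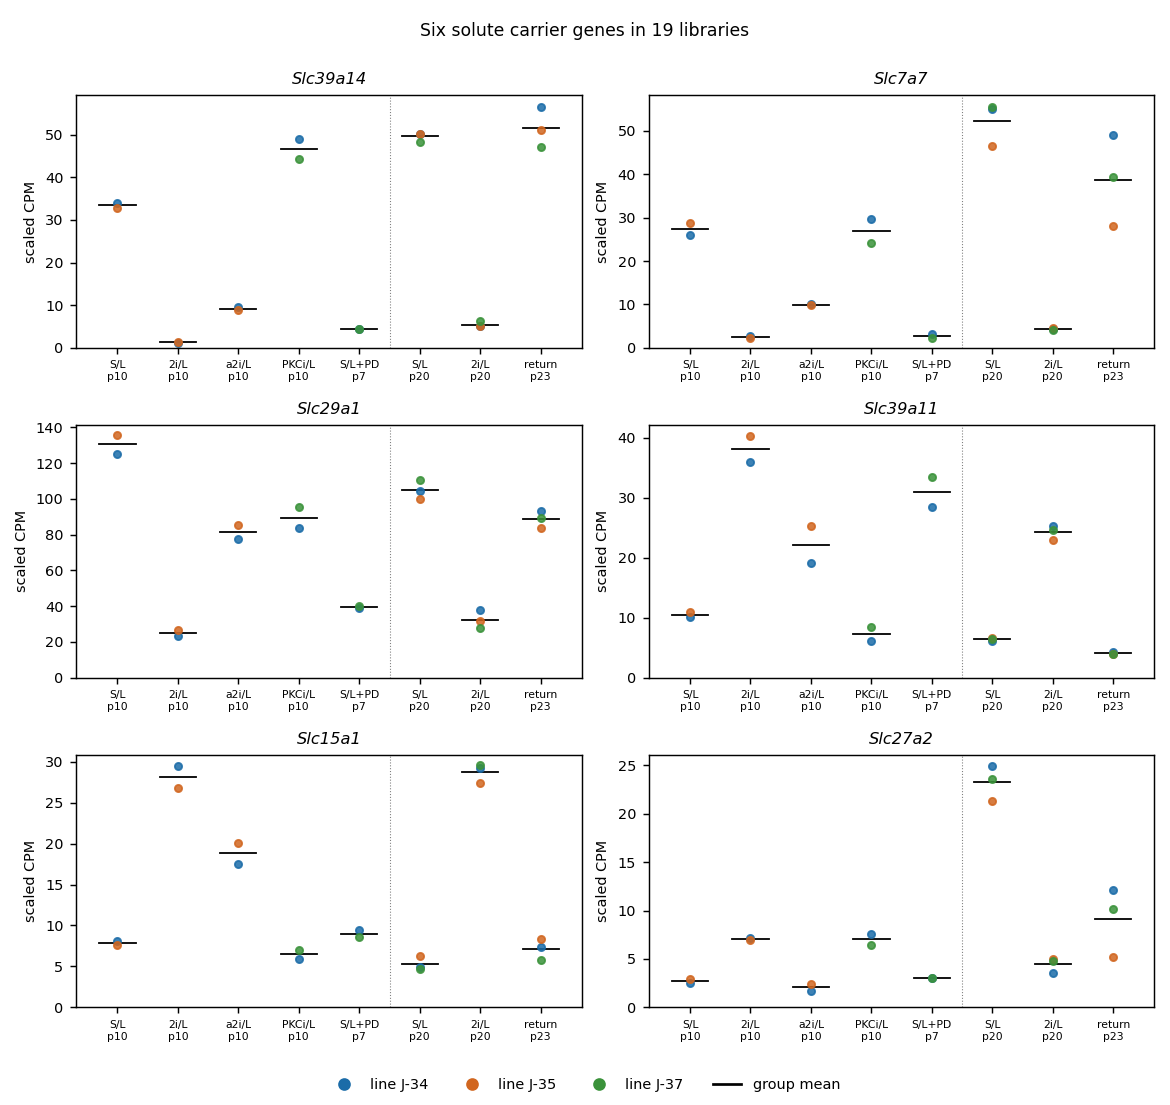
Scaled CPM (vertical axis, linear from 0) of 6 members in each of the 19 libraries by group, with passages 7 and 10 left of the dotted line and passages 20 and 23 right of it. Points are libraries coloured by line and bars are group means. Slc39a14, Slc7a7 and Slc29a1 are low in 2i/L and S/L+PD, Slc39a11 is high there, Slc15a1 is high in 2i/L and a2i/L, and Slc27a2 is higher in 2i/L at passage 10 and lower at passage 20.

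Other zinc importers rose in 2i/L at both passages. Slc39a1, a plasma membrane importer, was 22.5 and 22.7 scaled CPM in S/L and 39.3 and 41.2 in 2i/L at passage 10, with 23.5, 23.6 and 23.3 and 36.3, 37.9 and 39.1 at passage 20. Slc39a6, which forms a complex with the Slc39a10 product, was 8.66 and 8.78 in S/L and 19.6 and 18.1 in 2i/L at passage 10. Groups did not overlap in either gene, and the log2 changes at passage 10 and 20 were 0.82 and 0.67 for Slc39a1 and 1.07 and 1.24 for Slc39a6. Slc39a1 also rose in a2i/L (0.64) and S/L+PD (0.73). Slc39a10 was 14.8, 15.8 and 15.5 in S/L at passage 20, 36.7, 36.8 and 37.9 under 2i/L and 35.05, 44.1 and 38.8 after the return. Its return libraries stayed above S/L (log2 change 1.32 ± 0.076 SE, adjusted p = 9.65e-11) and differed from 2i/L by 0.076 (adjusted p above 0.05). Slc39a4, the intestinal zinc importer, rose in a2i/L (0.72 ± 0.17 SE, adjusted p = 0.00235) and fell in PKCi/L (-1.12 ± 0.17 SE, adjusted p = 3.18e-05). Of the Slc39 family, 5 of 7 members were higher and 1 lower in 2i/L at passage 10, and 4 and 1 at passage 20. Of all genes, 26.0% and 32.3% were higher and 23.4% and 32.1% lower at these passages.

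Among zinc exporters of the Slc30 family, 4 of 6 were higher in 2i/L at passage 10 and 2 at passage 20, and the others were not called. Of all genes, 26.0% and 32.3% were higher, and the count of passage 20 was near that share. Slc30a1, the zinc exporter of the plasma membrane, was 14.7 and 13.2 scaled CPM in S/L at passage 10, 33.9 and 31.4 in 2i/L and 23.5 and 24.2 in S/L+PD. Passage 20 levels were 15.7, 16.3 and 14.8 in S/L and 11.6, 13.8 and 14.03 in 2i/L. It rose at passage 10 (1.20 ± 0.14 SE, adjusted p = 7.77e-07), its change at passage 20 was -0.24, not called, and the difference between the effects was -1.44 ± 0.19 SE, adjusted p = 6.67e-06. Slc30a7, which loads zinc into the Golgi, rose in 2i/L at both passages (0.66 and 0.38). Slc48a1, the haem exporter of lysosomes, fell in PKCi/L (-0.97 ± 0.15 SE, adjusted p = 4.83e-05) and rose in 2i/L at passage 20 (0.91 ± 0.12 SE, adjusted p = 2.08e-06). Slc11a2, an importer of ferrous iron, rose in 2i/L at passage 20 and was higher after the return (0.52 and 0.52). Slc31a1, the copper importer, rose in a2i/L (0.50) and in 2i/L at both passages (0.39 and 0.285), with the call at passage 10 not kept under every alternative. Slc41a1, a magnesium carrier, rose in 2i/L at both passages (0.53 and 0.81).

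**Figure D3:**
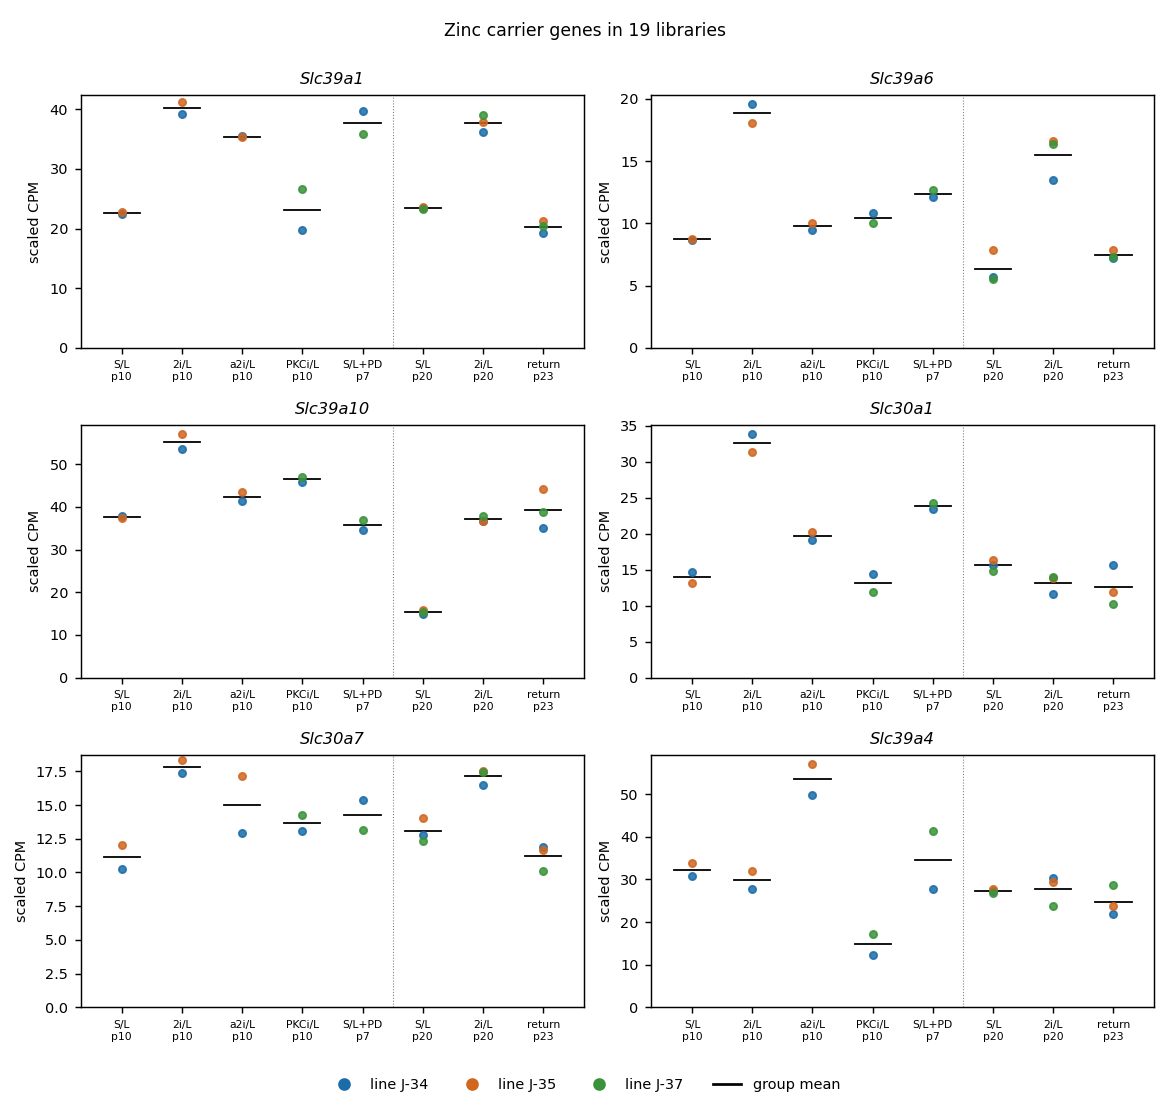
Scaled CPM (vertical axis, linear from 0) of 6 zinc carrier genes in the 19 libraries by group, with passages 7 and 10 left of the dotted line. Points are libraries coloured by line and bars are group means. Slc39a1 and Slc39a6 are higher in 2i/L than in S/L at both passages, and Slc30a1 is higher in 2i/L than in S/L at passage 10 and not at passage 20.

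Of 12 measured genes of metal storage, sensing and transferrin uptake outside the Slc families, 5 were higher and 3 lower in 2i/L at passage 10, and 5 and 4 at passage 20. The shares lower (25.0% and 33.3%) were near those of all genes (23.4% and 32.1%), and the shares higher were 41.7% at both passages (all genes 26.0% and 32.3%). The metallothioneins Mt1 and Mt2, which bind zinc and copper, were lower in 2i/L at passage 20 by log2 changes of -1.91 and -2.37. At passage 10 their values were -0.17 and -0.36, with adjusted p of 0.352 and 0.0686. Tfrc, the transferrin receptor, was 50.8 and 52.5 scaled CPM in S/L at passage 10, 141 and 120.3 in 2i/L and 244 and 140 in S/L+PD. It was 65.5, 71.5 and 66.5 in S/L at passage 20, 124, 162 and 160.3 under 2i/L and 175, 257 and 202 after the return. Its log2 changes against S/L were 1.32 in 2i/L at passage 10, 1.12 at passage 20 and 1.61 after the return. Ftl1, the ferritin light chain, fell in 2i/L at passage 10 (-1.14) and in S/L+PD (-1.10).

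Amino acid carriers were mostly lower, where called, in 2i/L and a2i/L at passage 10, in S/L+PD and after the return. Of 15 members, 2 were higher and 7 lower in 2i/L at passage 10 (median -0.35), 2 and 7 in a2i/L, 2 and 3 in PKCi/L and 2 and 9 in S/L+PD (median -0.44). At passage 20, 3 were higher and 5 lower in 2i/L, and after the return 1 and 10 against S/L. The shares lower were 46.7% in 2i/L at passage 10 (all genes 23.4%), 46.7% in a2i/L (18.2%), 60% in S/L+PD (21.3%) and 66.7% after the return (22.8%). In PKCi/L (20%) and in 2i/L at passage 20 (33.3%) they were near those of all genes (18.6% and 32.1%). The largest falls in 2i/L were of carriers of cationic amino acids (lysine, arginine and ornithine). Slc7a7, which exports them in exchange for neutral amino acids as a partner of Slc3a2, was 25.9 and 28.8 scaled CPM in S/L at passage 10, 2.67 and 2.23 in 2i/L, 10.2 and 9.79 in a2i/L, 29.6 and 24.1 in PKCi/L and 3.26 and 2.17 in S/L+PD. Its passage 20 levels were 54.96, 46.6 and 55.5 in S/L and 4.22, 4.48 and 4.03 in 2i/L, against 48.9, 27.99 and 39.4 after the return. The 2i/L and S/L+PD libraries did not overlap any S/L library, and PKCi/L overlapped S/L. The log2 change was -3.24 ± 0.19 SE, adjusted p = 2.86e-11 in 2i/L at passage 10, -3.13 ± 0.19 SE, adjusted p = 5.10e-11 in S/L+PD and -3.47 ± 0.15 SE, adjusted p = 4.85e-13 in 2i/L at passage 20. The difference of the 2i/L effects between passages was -0.23 and was not called. After the return the change against S/L was -0.46, a call lost in unscaled CPM, without the J-35 return library and without the J-34 or the J-37 S/L library.

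Slc7a3, an importer of cationic amino acids, was 62.04 and 81.01 scaled CPM in S/L at passage 10, 29.4 and 28.8 in 2i/L, 25.4 and 26.6 in a2i/L, 141 and 106 in PKCi/L and 37.6 and 17.9 in S/L+PD. At passage 20 it was 153, 149 and 148 in S/L and 29.8, 31.6 and 36.8 in 2i/L. It was lower in 2i/L, a2i/L and S/L+PD, with log2 changes of -1.27, -1.43 and -1.43, and lower in 2i/L at passage 20 (-2.18 ± 0.19 SE, adjusted p = 6.20e-09). PKCi/L libraries lay above S/L (0.78), a call lost in unscaled CPM, without the J-34 PKCi/L library and without the J-34 S/L library. Slc7a6, close to Slc7a7 in function, fell in PKCi/L (-1.48 ± 0.11 SE, adjusted p = 4.20e-09) and a2i/L (-0.72), and its 2i/L libraries of passage 20 differed from S/L by 0.20, not called. Slc43a2, a carrier of large neutral amino acids, fell in PKCi/L (-1.51) and in 2i/L at passage 20 (-1.35).

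Slc43a1, related to Slc43a2, was the amino acid carrier with the largest rise in 2i/L. It was 4.64 and 3.20 scaled CPM in S/L and 17.4 and 16.1 in 2i/L at passage 10, 1.26 and 1.51 in S/L+PD, and 3.89, 3.75 and 3.56 and 8.44, 8.82 and 10.4 in S/L and 2i/L at passage 20. The changes were 1.98 ± 0.18 SE, adjusted p = 1.04e-08 in 2i/L at passage 10, 1.19 ± 0.14 SE, adjusted p = 4.14e-07 at passage 20 and -1.21 ± 0.18 SE, adjusted p = 1.05e-05 in S/L+PD. So 2i/L lay above S/L and S/L+PD lay below it. The heavy chain Slc3a2 and its partner Slc7a5, which take up leucine and other large neutral amino acids, fell together in 2i/L at passage 10 by 0.50 and 0.57 on the log2 scale. At passage 20 their changes in 2i/L were -0.17 and 0.13, neither called. Slc38a1, a sodium-coupled glutamine importer, fell in 2i/L at passages 10 and 20 (-0.96 and -1.26) and in S/L+PD (-0.72). Slc38a2, its relative, had a change of -0.094 at passage 10, not called, and fell at passage 20 (-1.59 ± 0.16 SE, adjusted p = 2.67e-08). Slc38a7, a carrier of glutamine and asparagine in lysosomes, rose in 2i/L at passage 20 (0.94) and fell in S/L+PD (-0.69).

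After the return, several amino acid importers that were not called in 2i/L at passage 20 stood below S/L. Slc7a1, the main importer of cationic amino acids in many cells, was 76.1, 75.9 and 79.5 scaled CPM in S/L at passage 20, 76.4, 79.3 and 92.2 in 2i/L and 34.8, 24.4 and 27.1 after the return. Its return libraries were below all 16 other libraries, and the log2 change was -1.42 ± 0.12 SE, adjusted p = 2.14e-08 against S/L. Slc1a5, an exchanger of glutamine and other neutral amino acids, was 95.5, 78.6 and 91.9 in S/L, 84.3, 87.5 and 90.7 under 2i/L and 48.6, 40.1 and 49.6 after the return (-0.94 ± 0.10 SE, adjusted p = 4.42e-07). Slc1a4, its relative for alanine, serine and cysteine, was 53.01, 41.4 and 50.2, 42.8, 42.04 and 44.2 and 31.7, 24.9 and 25.8 (-0.80 ± 0.12 SE, adjusted p = 2.81e-05). In these genes the return libraries did not overlap either group of passage 20. Slc36a1, which exports amino acids from lysosomes, was also lower after the return (-0.70). Slc3a2 and Slc7a5 were lower by 0.48 and 0.37, calls lost in unscaled CPM. Slc7a3, Slc38a1 and Slc38a2 lay between 2i/L and S/L, at log2 changes of -1.18, -0.82 and -0.83 against S/L and 1.0, 0.44 and 0.76 against 2i/L. The Slc38a1 call against 2i/L was lost in unscaled CPM.

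**Figure D4:**
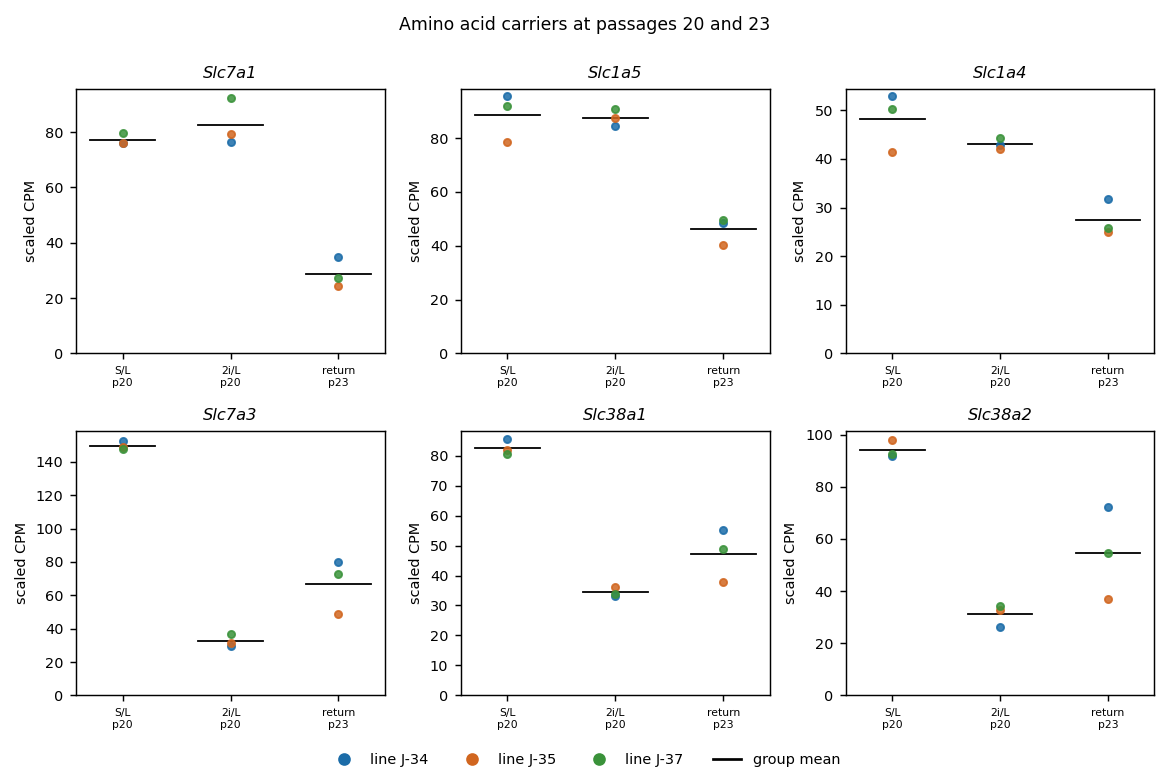
Scaled CPM (vertical axes, linear from 0) of 6 amino acid carrier genes at passage 20 in 2i/L or S/L and at passage 23 after the return to S/L. Points are libraries coloured by line and bars are group means. Slc7a1, Slc1a5 and Slc1a4 overlap between S/L and 2i/L and are lower after the return, while Slc7a3, Slc38a1 and Slc38a2 have return means between those of 2i/L and S/L.

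Both peptide carriers rose in 2i/L. Slc15a1, the proton-coupled importer of dipeptides and tripeptides known from the intestine, was 8.12 and 7.59 scaled CPM in S/L at passage 10, 29.4 and 26.7 in 2i/L, 17.5 and 20.1 in a2i/L, 5.95 and 7.02 in PKCi/L and 9.41 and 8.58 in S/L+PD. Later, at passage 20, it was 4.95, 6.32 and 4.71 in S/L, 29.2, 27.4 and 29.6 under 2i/L and 7.33, 8.40 and 5.74 after the return. The libraries of 2i/L and a2i/L stood above all others, and S/L+PD lay close to S/L. The changes were 1.77 ± 0.15 SE, adjusted p = 6.48e-09 in 2i/L and 1.21 ± 0.15 SE, adjusted p = 3.27e-06 in a2i/L at passage 10, 2.34 ± 0.12 SE, adjusted p = 4.32e-12 in 2i/L at passage 20, and 0.18 in S/L+PD, not called. Slc15a4, a histidine and peptide carrier of endosomes and lysosomes, rose by 1.16 in 2i/L at passage 10 and 0.95 at passage 20.

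Nucleoside carriers differed in direction by gene and passage. Slc29a1, the equilibrative carrier of nucleosides, was 125 and 136 scaled CPM in S/L at passage 10, 23.2 and 26.5 in 2i/L, 77.5 and 85.5 in a2i/L, 83.5 and 95.3 in PKCi/L and 39.03 and 40 in S/L+PD. At passage 20 it was 105, 100.1 and 111 in S/L and 37.6, 31.7 and 27.6 in 2i/L, against 92.97, 83.7 and 89.6 after the return. The lowest libraries were those of 2i/L and S/L+PD, and no library of another medium overlapped S/L of passage 10. The changes were -2.37 ± 0.11 SE, adjusted p = 2.34e-12 in 2i/L at passage 10, -1.71 ± 0.11 SE, adjusted p = 2.24e-10 in S/L+PD and -1.70 ± 0.093 SE, adjusted p = 6.92e-12 in 2i/L at passage 20. Smaller falls were seen in a2i/L (-0.68) and PKCi/L (-0.55). After the return the change against S/L was -0.24, a call lost in unscaled CPM (0.0028) and without single libraries (J-35 or J-37 after the return, J-34 or J-37 in S/L). Slc28a1, a sodium-coupled importer of pyrimidine nucleosides, was 9.66 and 12.7 in S/L and 21.6 and 22.97 in 2i/L at passage 10, but 26.7, 19.9 and 25.1 in S/L and 9.90, 7.61 and 8.51 in 2i/L at passage 20.

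Among the 6 vitamin carriers, Slc5a6 (biotin and pantothenate) rose in 2i/L at passages 10 and 20 (1.0 ± 0.17 SE, adjusted p = 5.28e-05 and 0.74 ± 0.14 SE, adjusted p = 9.65e-05). Slc52a2 (riboflavin) was 8.15 and 8.60 scaled CPM in S/L and 5.29 and 5.23 in 2i/L at passage 10, and 6.39, 3.85 and 5.85 and 13.2, 11.1 and 10.6 at passage 20. Its 2i/L libraries were thus lower at passage 10 (-0.62, a call lost without the J-35 S/L library) and higher at passage 20 (1.07). Slc52a2 also fell in a2i/L (-0.81). The folate carrier Slc46a1 rose in 2i/L at passage 20 (0.56) and at passage 10 (0.4, a call not kept under every alternative). Slc19a1, the reduced folate carrier, changed by -0.30 at passage 20, a call lost in unscaled CPM (0.049) and without the J-34 library of either group.

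Among sugar carriers, Slc2a3, the high-affinity glucose importer, was 1034 and 1113 scaled CPM in S/L at passage 10, 1518 and 1692 in 2i/L, 2022 and 2208 in a2i/L, 1390 and 1657 in PKCi/L and 936 and 1120 in S/L+PD. Slc2a3 levels at passage 20 were 709.7, 736 and 684 in S/L, 1036, 1050 and 1216 under 2i/L and 1210, 1383 and 1428 after the return. S/L+PD overlapped S/L, and 2i/L, a2i/L, PKCi/L and the return libraries lay above S/L of passage 10 or 20. The changes were 0.98 ± 0.13 SE, adjusted p = 5.79e-06 in a2i/L, 0.58 ± 0.13 SE, adjusted p = 8.30e-04 in 2i/L at passage 10, 0.63 ± 0.10 SE, adjusted p = 2.65e-05 in 2i/L at passage 20 and 0.91 ± 0.10 SE, adjusted p = 9.37e-07 after the return. Slc45a4, named as a proton-coupled sugar carrier, rose in S/L+PD (0.84) and fell in PKCi/L (-0.40). Slc37a1 rose in PKCi/L (0.88) and fell in S/L+PD (-0.76) and in 2i/L at passage 20 (-0.76). Slc50a1, of the SWEET family, rose in 2i/L at passage 20 (1.06).

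Slc16a1, the carrier of lactate and pyruvate, was 68.7, 83.9 and 72.1 scaled CPM in S/L at passage 20, 95.8, 103 and 115 in 2i/L and 104, 119 and 106 after the return (0.48 and 0.55 against S/L). At passage 10 its change in 2i/L was 0.074, not called. Its chaperone Bsg was 135 and 162 in S/L at passage 10 and 316 and 343 in 2i/L, 444 and 420.3 in a2i/L, 285 and 395 in PKCi/L and 318 and 364 in S/L+PD, with log2 changes of 1.15, 1.54, 1.18 and 1.20. Emb, a relative of Bsg that can also serve monocarboxylate carriers, was lower by 1.48 in 2i/L at passage 10, 1.85 at passage 20 and 1.31 in S/L+PD, on the log2 scale. Slc16a6, a monocarboxylate carrier known in zebrafish for ketone body export, was 5.27 and 7.14 in S/L, 18.9 and 15.9 under 2i/L and 12.3 and 14.3 in a2i/L at passage 10 (1.42 ± 0.16 SE, adjusted p = 3.02e-07 and 1.05 ± 0.16 SE, adjusted p = 3.23e-05). Slc16a6 stood at passage 20 at 11.2, 11.5 and 11.4 in S/L and 9.16, 9.18 and 11.2 under 2i/L, and the change was not called (-0.20).

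Of the fatty acid carriers of the Slc27 family, Slc27a3 and Slc27a4 rose in 2i/L at both passages. Slc27a3 was 10.7 and 8.78 scaled CPM in S/L and 29.3 and 26.6 in 2i/L at passage 10, 23.1 and 24.7 in S/L+PD, and 10.1, 10.3 and 8.88 and 18.1, 21.1 and 25.1 in S/L and 2i/L at passage 20. Its changes were 1.48 ± 0.16 SE, adjusted p = 1.94e-07, 1.26 ± 0.16 SE, adjusted p = 2.19e-06 and 1.08 ± 0.13 SE, adjusted p = 4.66e-07. Slc27a4 rose by 0.62 in 2i/L at passage 10 and 1.21 at passage 20, and Slc27a1 by 0.69 at passage 20. Slc27a2, which imports and activates very long chain fatty acids, was 2.47 and 2.91 in S/L, 7.12 and 6.999 under 2i/L and 7.55 and 6.49 in PKCi/L at passage 10. At passage 20 it was 24.9, 21.3 and 23.6 in S/L, 3.52, 5.01 and 4.79 under 2i/L and 12.1, 5.17 and 10.2 after the return. S/L and 2i/L did not overlap at either passage, and the change in 2i/L was 1.25 ± 0.25 SE, adjusted p = 2.94e-04 at passage 10 and -2.28 ± 0.20 SE, adjusted p = 6.66e-09 at passage 20. Among the choline carriers, Slc44a1 fell in PKCi/L (-0.64) and rose in 2i/L at passage 20 (0.78). Slc44a2 fell in 2i/L at passage 10 (-0.82) and in PKCi/L (-0.75). It was also lower in 2i/L at passage 20 (-0.515), a call not kept under every alternative.

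The 24 mitochondrial carriers of the Slc25 family split in both directions. In 2i/L 4 were higher and 7 lower at passage 10, and 10 and 10 at passage 20, with medians of -0.066 and -0.031. At passage 10 these were 16.7% higher and 29.2% lower (all genes 26.0% and 23.4%), and at passage 20 both were 41.7% (all genes 32.3% and 32.1%). Slc25a1, which exports citrate for lipid synthesis, was 26.9 and 37.4 scaled CPM in S/L at passage 10, 62.8 and 61.95 in 2i/L, 65.5 and 62.7 in a2i/L, 53.8 and 63.4 in PKCi/L and 34.4 and 35.2 in S/L+PD. S/L+PD lay within the S/L range and 2i/L, a2i/L and PKCi/L lay above it. The changes were 0.96 ± 0.13 SE, adjusted p = 2.57e-06 in 2i/L, 1.0 ± 0.13 SE, adjusted p = 3.67e-06 in a2i/L, 0.87 ± 0.13 SE, adjusted p = 2.25e-05 in PKCi/L and 1.01 ± 0.10 SE, adjusted p = 4.74e-08 in 2i/L at passage 20. Slc25a20, which carries acylcarnitines into the matrix, was 33.8 and 36.4 in S/L, 50.95 and 51.9 under 2i/L, 12.5 and 14.3 in PKCi/L and 103 and 113 in S/L+PD. It rose in S/L+PD (1.60 ± 0.10 SE, adjusted p = 4.99e-11) and fell in PKCi/L (-1.36 ± 0.10 SE, adjusted p = 1.43e-09), with 2i/L between (0.54). Cpt1a, the enzyme that makes acylcarnitines at the outer membrane, fell in PKCi/L (-0.75) and rose in 2i/L at passage 20 (1.80), and its change in S/L+PD was -0.06, not called.

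The ADP/ATP exchanger Slc25a4 was 64.95, 78.97 and 71.2 scaled CPM in S/L at passage 20, 151, 144 and 140.2 in 2i/L and 156, 179.9 and 159 after the return. It rose by 1.02 ± 0.081 SE, adjusted p = 1.28e-09 in 2i/L and stayed above S/L after the return (1.20 ± 0.081 SE, adjusted p = 1.02e-09). At passage 10 its change in 2i/L was -0.05, not called. Its relative Slc25a5 fell in 2i/L at passage 10 (-0.68 ± 0.10 SE, adjusted p = 1.10e-05). It also fell at passage 20 (-0.62), a call not kept under every alternative. Because Slc25a5 has many processed pseudogenes its counts are uncertain. Slc25a15, the ornithine carrier of the urea cycle, was 17.2, 21.9 and 17.2 in S/L at passage 20, 36.8, 37.8 and 37.2 under 2i/L and 39.7, 47.9 and 43.2 after the return (0.98 and 1.20 against S/L). Slc25a30 rose in 2i/L at both passages (0.83 and 1.36) and in a2i/L (0.98). Slc25a40, linked to glutathione import, was 26.7 and 22.8 in S/L and 9.75 and 8.68 in a2i/L at passage 10, and 47.3, 55.7 and 47.2 in S/L, 12.2, 15.2 and 15.6 under 2i/L and 31.4, 25.9 and 24.6 after the return. Its fall was -1.77 ± 0.12 SE, adjusted p = 8.20e-11 in 2i/L at passage 20, -0.91 in 2i/L at passage 10 and -1.38 in a2i/L. Slc25a3, the phosphate carrier, varied little, with changes from -0.13 in S/L+PD to 0.26 in 2i/L at passage 20, of which the last was called. Of 8 measured genes of mitochondrial entry outside the Slc families, 4 were higher in 2i/L at passage 20 (50%, all genes 32.3%) and the others were not called.

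Of the 18 carriers of inorganic ions, 5 were higher and 6 lower in 2i/L at passage 10, 2 and 9 in PKCi/L and 7 and 7 in 2i/L at passage 20. The share higher in 2i/L at passage 10 (27.8%) was near that of all genes (26.0%), the share lower was 33.3% (all genes 23.4%), both were 38.9% at passage 20 (32.3% and 32.1%), and 50% were lower in PKCi/L (18.6%). Slc20a1, a sodium-coupled phosphate importer and retrovirus receptor, was 131 and 124 scaled CPM in S/L at passage 10, 50.1 and 50.4 in 2i/L, 46.5 and 49.9 in a2i/L, 94.4 and 84.2 in PKCi/L and 109.8 and 122 in S/L+PD. The 2i/L and a2i/L libraries were the lowest, and S/L+PD differed from S/L by -0.14, not called. The falls were -1.33 ± 0.11 SE, adjusted p = 4.69e-09 in 2i/L, -1.39 ± 0.11 SE, adjusted p = 7.07e-09 in a2i/L and -1.08 ± 0.091 SE, adjusted p = 2.91e-09 in 2i/L at passage 20. Slc20a2, its relative, fell in 2i/L at passage 10 (-0.79) and in S/L+PD (-0.58), and was higher than S/L after the return (0.51). Its fall in 2i/L at passage 20 (-0.409) was a call not kept under every alternative. Cation-chloride carriers set cell volume and chloride. Slc12a2, which brings in sodium, potassium and chloride, rose in 2i/L at passage 10 (1.06 ± 0.14 SE, adjusted p = 2.07e-06) and S/L+PD (0.64). Slc12a4, a potassium-chloride exporter, was 32.7 and 27.2 in S/L at passage 10, 8.89 and 9.97 in 2i/L, 12.7 and 13.99 in a2i/L and 11.2 and 13.4 in PKCi/L (-1.61, -1.13 and -1.25). Slc12a7, of the same subfamily, rose in 2i/L at both passages (0.70 and 0.99) and in a2i/L (0.61).

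Slc9a5, a sodium-proton exchanger, fell in 2i/L at passage 10 (-1.67 ± 0.21 SE, adjusted p = 1.39e-06) and S/L+PD (-1.17) and was above S/L after the return (1.0). The bicarbonate carrier Slc4a7 fell in S/L+PD (-1.21 ± 0.13 SE, adjusted p = 2.52e-07) and PKCi/L (-0.56), and Slc4a8 fell in PKCi/L (-1.11) and rose in 2i/L at passage 20 (0.85). Slc26a2, a sulfate carrier, fell in S/L+PD (-0.87), PKCi/L (-0.55) and 2i/L at passage 10 (-0.54). The sodium gradient that drives many of these carriers is kept by the sodium pump. Of 13 pump subunits and carrier partners, 4 were higher and 6 lower in 2i/L at passage 10, and 5 and 3 at passage 20. The shares were 30.8% higher and 46.2% lower at passage 10 (all genes 26.0% and 23.4%) and 38.5% and 23.1% at passage 20 (32.3% and 32.1%). The pump subunit Atp1b1 rose in 2i/L at passage 20 (0.73) and fell in PKCi/L (-0.86).

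Of the osmolyte and amine carriers, Slc6a6 (taurine) rose in PKCi/L (0.60 ± 0.088 SE, adjusted p = 2.39e-05) and in 2i/L at passage 20 (0.89 ± 0.072 SE, adjusted p = 1.63e-09). Slc6a8 (creatine) rose in 2i/L at passage 20 (0.48) and at passage 10 (0.333, a call not kept under every alternative). Slc5a3 (myo-inositol) was 15.9 and 13.3 scaled CPM in S/L and 5.999 and 7.16 in PKCi/L at passage 10, a fall of -1.09 ± 0.15 SE, adjusted p = 1.13e-05. It was 3.29, 4.24 and 3.57 in S/L and 5.995, 6.62 and 5.89 in 2i/L at passage 20, with a change of 0.67. Among the 4 nucleotide sugar carriers of the Golgi, Slc35a2 (UDP-galactose) fell in 2i/L at passage 20 (-0.90 ± 0.12 SE, adjusted p = 2.26e-06). The organic anion carrier Slco4a1 was 6.99 and 6.77 in S/L and 0.997 and 1.89 in 2i/L at passage 10 (-1.96 ± 0.23 SE, adjusted p = 5.19e-07), and 5.06, 4.40 and 4.99 and 3.67, 1.86 and 2.11 at passage 20 (-0.85). Slc22a23, whose substrate is not settled, rose in 2i/L at passage 20 (1.23) and fell in a2i/L (-0.67). Its rise in 2i/L at passage 10 (0.47) was a call not kept under every alternative. Slc17a9, which loads ATP into vesicles, rose in 2i/L, PKCi/L and S/L+PD at passages 10 and 7 (0.85, 0.87 and 0.82), and Slc33a1, the acetyl-CoA carrier of the endoplasmic reticulum, in 2i/L at passage 10 (0.79).

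The effect of 2i/L could be compared between passages 10 and 20 without shared libraries. The lines J-34 and J-35 are in both, and the tests come from 1 fit, so the passages are not independent sets. Of 38 members higher at passage 10, 26 (68.4%) were also higher at passage 20, where they were 54.2% of the 48, and 62.4% of all genes higher at passage 10 were higher at passage 20. Of 27 members lower at passage 10, 18 (66.7%) were lower at passage 20, where they were 52.9% of the 34, against 59.3% of all genes. Slc27a2, Slc28a1 and Slc12a8 were higher at passage 10 and lower at passage 20, and Slc52a2 was lower and then higher. The call of Slc12a8 at passage 10 was lost without the J-35 2i/L library, and that at passage 20 in unscaled CPM and without the J-34 library of either group. By the test of the difference itself, the effect was higher at passage 20 for 27 members and lower for 22 (all genes 39.6%, as 19.1% and 20.5%). In unscaled CPM it was 48 and 7, where the median difference of all genes was 0.29. The largest difference was of Slc27a2 (-3.53 ± 0.32 SE, adjusted p = 1.16e-07). S/L itself differed between the passages in several of these genes: Slc27a2 was 2.69 ± 0.310 (SD, n = 2) in S/L at passage 10 and 23.3 ± 1.83 (SD, n = 3) at passage 20, while 2i/L stood at 7.06 ± 0.0876 (SD, n = 2) and 4.44 ± 0.803 (SD, n = 3). Passage 20 and passage 10 libraries also differed in the share of CPM in listed genes, given above, and in Lars2, which was 56.9 to 3797 CPM in the libraries of passages 7 and 10 and 14870 to 29548 CPM in those of passages 20 and 23. The part of either in these differences was not tested.

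**Figure D5:**
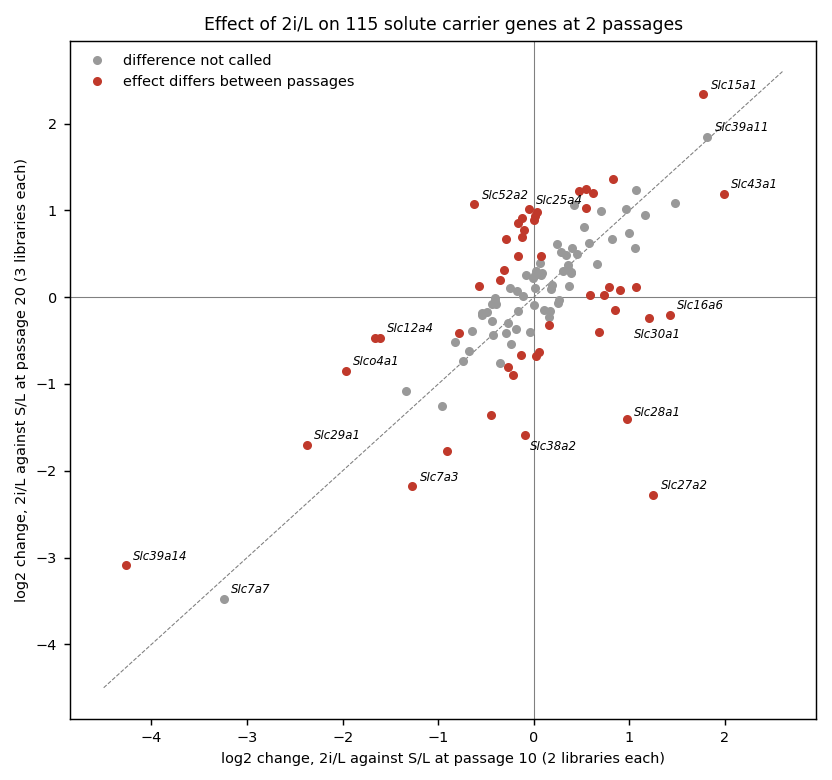
Log2 change in 2i/L against S/L at passage 10 (horizontal) and at passage 20 (vertical) of the 115 members, which share no library between the axes. The dashed line is equality, and red points have an adjusted p under 0.05 for the difference between passages. Slc39a14, Slc7a7 and Slc29a1 lie far down on both axes, Slc15a1 and Slc39a11 far up on both, and Slc27a2 and Slc28a1 lie in the quadrant of opposite signs.

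Markers of other cell types moved with the groups. In S/L+PD 14 of 15 fibroblast markers were higher than in S/L (93.3%, all genes 23.4%). In 2i/L at passage 10, 11 were higher and 1 lower (73.3% and 6.7%, all genes 26.0% and 23.4%). In a2i/L 2 were higher and 3 lower (median log2 change -0.33), and in PKCi/L 2 and 2 (median -0.081). Col1a1 was 2.92 and 2.29 scaled CPM in S/L at passage 10, 19.9 and 13.9 in 2i/L, 0.907 and 0.793 in a2i/L and 367 and 279 in S/L+PD. In 2i/L at passage 20 13 were higher and 2 lower, and after the return 1 and 9 against S/L. Their part in the S/L+PD rises of Slc25a20, Slc27a3, Slc39a11, Slc31a2 (0.75) and Slc45a4 was not tested. Of 7 measured markers of a list of 13 for primitive endoderm, 5 were lower in 2i/L at passage 10 (71.4%, all genes 23.4%). In PKCi/L 6 were lower (85.7%, all genes 18.6%, median -1.50) and in a2i/L 3 (42.9%, all genes 18.2%). In S/L+PD 2 were higher and 5 lower (28.6% and 71.4%, all genes 23.4% and 21.3%). In 2i/L at passage 20 it was 3 and 1 (42.9% and 14.3%, all genes 32.3% and 32.1%). After the return 4 were higher than in S/L (57.1%, all genes 21.5%, median 1.23), namely Gata4, Gata6, Cubn and Col4a1. Their sum was 157.9 to 182.2 scaled CPM in S/L at passage 10, 99.68 to 110.4 in 2i/L, 93.11 to 103.6 in a2i/L, 47.57 to 58.64 in PKCi/L and 165.6 to 180.7 in S/L+PD. It was 112.9 to 135.3 in S/L at passage 20, 112.5 to 142.8 under 2i/L and 146.1 to 234.8 after the return. Of 7 trophoblast markers, 4 were higher and 2 lower in 2i/L at passage 10, 4 and 2 in a2i/L, 1 and 3 in PKCi/L, 3 and 1 in S/L+PD, 4 and 3 in 2i/L at passage 20 and 3 and 2 after the return, with sums from 31.11 to 107 over the 19 libraries. In that order, the shares higher were 57.1%, 57.1%, 14.3%, 42.9%, 57.1% and 42.9% (all genes 26.0%, 18.7%, 18.0%, 23.4%, 32.3% and 21.5%). The shares lower were 28.6%, 28.6%, 42.9%, 14.3%, 42.9% and 28.6% (all genes 23.4%, 18.2%, 18.6%, 21.3%, 32.1% and 22.8%). The part of any of these cell types in the changes of the carriers was not tested.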

How the data were processed

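Per the labels' protocols, RNA of sorted mouse ESCs was depleted of ribosomal RNA and went into stranded libraries that a HiSeq read from both ends. The builds NCBIM37 and mm9 and, with no roles given, edgeR 3.8.6, HTSeq 0.6.0, SAMtools 0.1.18.0, Picard 1.100 and STAR 2.3.0 are in the submitters' processing notes. The strand setting of the counting is not given in the sources used here, so reads of overlapping antisense genes may not be told apart. The deposited values are linear CPM per gene and library, rounded by the authors to 2 decimals, with no scaling between libraries visible in them. Every listed gene is at 1.01 CPM or more in at least 3 libraries. The columns sum to less than 1000000, so reads of other genes or regions are part of the library totals used by the authors. Steps between low CPM values gave depths of 33.9 to 45.4 × 1000000 reads for the 10 libraries of passages 7 and 10. Rounding kept whole reads from being recovered, so no count test was run and no counting interval is given.

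The CPM were scaled with an unweighted trimmed mean of M values (30% of M and 5% of A trimmed), because in unscaled CPM the median log2 change of all genes was up to 0.33 (2i/L against S/L at passage 20), against at most 0.03 in size after scaling. log2(scaled CPM + 0.5) was fitted with limma 3.58.1 in R 4.3.3 (group means of 8 groups, 11 residual degrees of freedom, empirical Bayes with trend), with Benjamini-Hochberg adjustment over 12942 genes per comparison and a threshold of 0.05, two-sided. The method was tested on simulated data. Members, substrate classes (by family number), partner and marker lists and tests were chosen with earlier results of these data known. Genes named are those the following rule allows: the 8 largest called rises and falls per comparison, up to 2 per class and direction, the 10 largest F in each F test, and a panel of 28 carriers, of which Slc6a9 and Slc40a1 were no members. A member outside this rule, and each gene named from a partner or marker list, was chosen after its values were seen. Samples were grouped by title. Line numbers pair libraries because the same line was grown in several media. Deviations from the group means had a median correlation of 0.0261 between groups for the same line (53 pairs) and -0.0112 for different lines. Among the groups of 3 libraries it was 0.0991 for the same line (9 pairs, -0.0964 to 0.272). For different lines there it was -0.0604 (18 pairs, -0.259 to 0.294). Alternatives were unscaled CPM, median-of-ratios scaling, pseudocounts of 0.1 and 1, a minimum mean of 5 CPM for all genes, the line as a block (from the title or the generation label), and leaving out each library in turn. Replicates are different lines, and nothing in the labels says how many animals they came from. Promoter windows are from RefSeq (GRCm38.p6), and no coordinate of the expression table was used. A few members and listed genes are counted but their values are not reported here.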

Additional observations from a re-analysis of the deposited data

Results flagged for a closer look

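The effect of 2i/L against S/L differed between passages 10 and 20 by limma's test of the difference (adjusted over all genes) for the members below, the 8 with the largest called difference in each direction. All values here are the passage 20 effect minus the passage 10 effect. In Slc27a2 it was -3.53 ± 0.321 SE (adjusted p = 1.16e-07), from 1.25 at passage 10 and -2.28 at passage 20. In Slc28a1 it was -2.38 ± 0.231 SE (adjusted p = 2.45e-07), from 0.97 and -1.41, so that these genes were higher in 2i/L at the first passage and lower at the second. Slc16a6 (-1.63), Slc30a1 (-1.44), Slc17a9 (-0.997) and Slc12a2 (-0.947) rose in 2i/L at passage 10 and were not called at passage 20, and Slc12a8 (-1.09) was higher at passage 10 and lower at passage 20. Slc38a2 (-1.5) fell at passage 20 and was not called at passage 10.

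In the other direction, Slc52a2 differed by 1.7 ± 0.237 SE (adjusted p = 1.57e-05), from -0.62 at passage 10 and 1.07 at passage 20. Slc4a8 (1.01), Slc48a1 (1.04) and Slc25a4 (1.07) rose at passage 20 and were not called at passage 10. Slco4a1 (1.12), Slc12a4 (1.14), Slc39a14 (1.18) and Slc9a5 (1.19) were lower in 2i/L at both passages, with the smaller log2 fall at passage 20. The passage 20 falls of Slc12a4 (-0.469) and Slc9a5 (-0.474) were calls not kept under every alternative. The call of the difference for Slc4a8 was lost without the J-34 2i/L or the J-34 S/L library of passage 10 (0.705 and 0.91). That of Slco4a1 was lost without the J-34 2i/L library (0.778), and that of Slc17a9 in unscaled CPM (-0.692). The passages differ in the share of CPM in listed genes, in the level of Lars2, in the number of lines (2 against 3) and in the level of these genes in S/L, and the part of these in the differences was not tested.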

How the results depend on the processing

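Apart from leaving out a library, the counts of called members that moved by more than 1.5 times did so in unscaled CPM, where 11 members were higher in a2i/L, 7 in PKCi/L and 13 in S/L+PD, 16 were lower in 2i/L at passage 20, 13 were lower after the return against S/L, and 48 members had a higher and 7 a lower 2i/L effect at passage 20 than at passage 10. The unscaled values hold the shift of all genes given with the processing. Among named members, unscaled CPM reversed Slc19a1 (0.0493) and Slc1a5 (0.356, from an uncalled -0.01) in 2i/L at passage 20 and Slc29a1 after the return against S/L (0.00279), kept direction and side of the threshold in 329 values, ended 57 calls and made 13. Leaving out 1 library left 7407 values of named members on the same side of the threshold with the same sign, ended 205 calls, made 26 and reversed 0. Without 1 library the members higher and lower were 32 to 39 and 21 to 31 for 2i/L at passage 10, 12 to 26 and 16 to 29 for a2i/L, 10 to 19 and 19 to 31 for PKCi/L, 18 to 21 and 19 to 24 for S/L+PD, 45 to 50 and 31 to 35 for 2i/L at passage 20, 27 to 33 and 28 to 36 for the return against S/L, 26 to 31 and 43 to 49 for the return against 2i/L, and 22 to 31 and 18 to 23 for the difference between passages. The F tests called 101 to 107 members at passages 7 and 10 and 93 to 100 at passages 20 and 23. With the line as a replicate block, 4 calls of named members were lost and 1 gained by title, and 2 were lost and 1 gained by the generation label, and the count for 2i/L at passage 10 was 38 higher and 27 lower. Groups of 2 lines and the rounding of low CPM limit what small changes could be seen.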
